A study of Mus musculus with 12 samples.

Results

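The unfolded protein response and the integrated stress response were followed through 10 genes, Hspa5, Ddit3, Atf3, Atf4, Xbp1, Herpud1, Dnajb9, Trib3, Sdf2l1 and Creld2, which were taken by gene name from the 54532 genes counted in each mouse liver library. These 10 names occupied 11 rows, because Ddit3 had a second identifier (ENSMUSG00000116429) that held 0 counts in every library and was not analysed further. All 10 genes passed the filter on low counts in every comparison.

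The endoplasmic reticulum (ER) folds secreted and membrane proteins, and hepatocytes, which make most plasma proteins, carry a large amount of it. When unfolded proteins build up there, the sensors IRE1, PERK and ATF6 start the unfolded protein response: IRE1 splices the mRNA of Xbp1, ATF6 is cut to release a transcription factor, and PERK phosphorylates eIF2alpha, which slows translation and favours synthesis of ATF4. The integrated stress response is the branch that runs through eIF2alpha and ATF4, and other kinases enter it when amino acids or heme are short or when double-stranded RNA is present. The targets of these factors include ER chaperones, parts of the ER-associated degradation machinery that sends misfolded proteins to the proteasome, and the transcription factor CHOP, the product of Ddit3.

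RNA from whole liver was sequenced in 12 libraries, 3 for each combination of genotype and time. All groups were male mice with both Pparg alleles floxed (PPARγ flox/flox), injected at 8 weeks of age with an AAV8 virus and then kept on a fast-food diet (FFD) with 21% fat and 34% sucrose by weight, 0.2% cholesterol and fructose and glucose in the drinking water. WT mice had received AAV8-TBG-eGFP and PPARγ-KO mice AAV8-TBG-Cre, in which the TBG promoter limits Cre to hepatocytes, so that other liver cells keep Pparg. Livers were taken after 2 or 5 months of FFD. No chow-fed group was analysed here, so every value describes liver on this diet. The labels do not say that the 3 libraries of a group came from separate mice, and the p-values measure only the spread between these libraries.

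The libraries held 16367775 to 27452284 counts, with 4.702% to 6.437% of them on mitochondrial genes. Pparg itself was not lower in the libraries labelled PPARγ-KO: its mean was 39.27 ± 1.92 normalized CPM (read counts scaled to a common library total; SD, n = 3) in WT and 56.29 ± 8.84 in KO at 2 months, and 38.44 ± 2.54 and 84.8 ± 9.05 at 5 months. Counts were made per gene and not per exon, so they do not show whether the floxed exons were lost. Known PPARγ target genes were picked after the data were seen, so their count is no test of the labels. Of 7, 5 (Cidea, Cidec, Mogat1, Plin2 and Plin4) were lower in KO-labelled liver at both times and 0 were higher (edgeR). Among all genes, 260 of 14573 were called lower at 2 months and 9.51% at 5 months. The lipid droplet genes Cidec (99.77 to 177.4 CPM in WT and 7.523 to 13.4 in KO-labelled libraries at 2 months, 141.1 to 148.1 and 17.16 to 26.52 at 5 months) and Plin2 (924.3 to 1209 and 580.9 to 679.7, then 1157 to 1192 and 679 to 714.9) did not overlap between the genotypes. Nor did 24.1% of all genes at 2 months and 34.9% at 5 months. Cd36 (edgeR adjusted p = 0.0758 and 0.465) and Fabp4 (0.231 and 0.515) were not called at either time. The groups are called by their labels, and each genotype difference below is a difference between labels. The number of genes called between the genotypes at 2 months depended on single libraries: it was 519 with all, 1577 without WT replicate 1, 117 without WT replicate 2 and 150 without WT replicate 3, and 133, 238 and 202 without KO replicate 1, 2 or 3. Alb, which encodes albumin, at a mean of 44910 CPM in WT at 2 months, and the other hepatocyte markers were abundant throughout. The 9 that were matched summed to 65140 to 80220 CPM in WT and 83680 to 96440 in KO-labelled libraries at 2 months, and to 64240 to 68600 and 82990 to 94560 at 5 months, without overlap between the genotypes at either time. By gene, edgeR called 1 of the 9 higher at each time. Of all genes it called 3.56% at 2 months, and 8.9% higher at 5 months. Of the 9 log2 fold changes 8 were positive and 1 negative at 2 months, and 5 and 4 at 5 months. The part of this difference in sums in the genotype results below, such as that of Herpud1, was not tested. Since liver was sequenced in bulk, fewer cells of a type and less RNA per cell cannot be told apart.

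The promoters of all 10 genes were read from RefSeq (build GRCm38.p6, from 250 bases before to 50 bases after the start) and searched on both strands for response elements known from the biochemistry of these pathways. For each gene the first listed start was used, and other starts were not searched. That of Atf3 lies inside the counted gene, which runs to base 191218039 on the minus strand. The ER stress response element (ERSE), in which CCAAT and CCACG are separated by 9 bases of any kind, joins sites for NF-Y and for ATF6 or XBP1 and was present in 0.13% of 27025 mouse promoters. Hspa5 and Creld2 carried it. ERSE-II, in which ATTGG and CCACG are separated by 1 base, was present in 0.037% of promoters, among them that of Herpud1. The ATF4-binding C/EBP-ATF response element (CARE), searched as TTGCATCA, was present in 0.929% of promoters, including those of Herpud1 and Atf3. TGACGTGG (a core of the unfolded protein response element, UPRE, in 0.607% of promoters) and TGACGTCA (the cyclic AMP response element, CRE, in 1.88%) were in none of the 10. The stretches that hold a match are shown so that the elements can be read beside the values of these 4 genes. Letters in capitals mark the fixed bases of the match, and the strand shown is that of the gene.
Hspa5 (chr2:34772015-34772053, plus strand, ERSE at bases -65 to -47): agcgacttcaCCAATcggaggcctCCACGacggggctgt
Creld2 (chr15:88819510-88819548, plus strand, ERSE on the opposite strand at bases -126 to -108): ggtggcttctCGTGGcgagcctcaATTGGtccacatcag
Herpud1 (chr8:94386307-94386397, plus strand, CARE at bases -112 to -105 and ERSE-II at bases -52 to -42): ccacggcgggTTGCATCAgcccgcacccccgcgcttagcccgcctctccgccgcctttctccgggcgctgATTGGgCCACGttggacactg
Atf3 (chr1:191183426-191183453, minus strand, CARE at bases -110 to -103): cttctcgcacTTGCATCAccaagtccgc
Positions count back from the RefSeq start, the base before it being -1. The Hspa5 stretch has CCAAT first and CCACG second, and the Creld2 stretch has the same pair read from the other strand. No match in the remaining 6 promoters says only that these letters are not in those windows.

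Per kilobase of gene length, the 10 transcripts differed widely in level. In WT liver at 2 months, Herpud1 (141.8 ± 29.6 CPM per kb; SD, n = 3) and Hspa5 (127.5 ± 23.2) were the most abundant, and they did not differ beyond their spread. Xbp1 (51.86 ± 4.41), Atf4 (27.79 ± 1.24) and Dnajb9 (23.07 ± 4.06) came next. Creld2 (11.45 ± 5.12) and Sdf2l1 (9.484 ± 3.29) followed, within each other's spread. Ddit3 (4.731 ± 0.919), Atf3 (4.4 ± 3.66) and Trib3 (3.925 ± 2.09) were the lowest and overlapped. At 5 months the order by this measure had changed in WT. Hspa5 stood first at 281 ± 27 CPM per kb, ahead of Herpud1 at 192.3 ± 29.2. Sdf2l1 (46.53 ± 6.48) and Creld2 (40.99 ± 4.8) had moved from below Atf4 and Dnajb9 to mean levels above them (36.22 ± 1.58 and 35.77 ± 5.53). The order rests on the deposited gene lengths, which need not be those of the expressed transcripts. Undivided by length, Hspa5 already exceeded Herpud1 at 2 months (539.4 ± 98.3 and 330.9 ± 69.1 CPM). In the same unit Sdf2l1 (51.56) and Creld2 (56) were below Atf4 (85.42) and Dnajb9 (91.19) at 5 months.

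**Figure D1:**
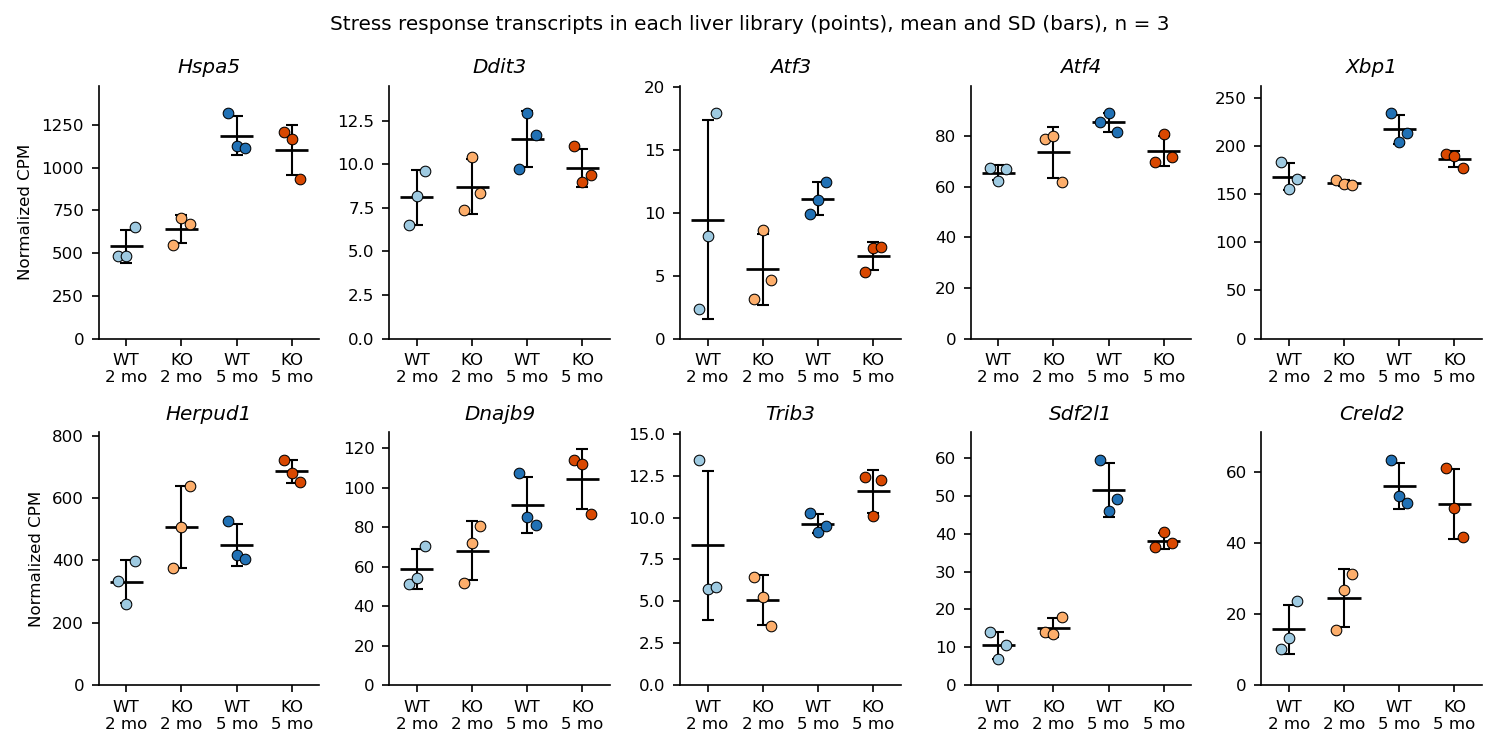
Normalized CPM (vertical axes, each starting at 0) of the 10 stress response transcripts in the 12 liver libraries, by genotype label and months of FFD; points are libraries, and the horizontal line and bar give the mean and SD of 3. Hspa5, Sdf2l1 and Creld2 lie higher in all 5-month libraries than in all 2-month libraries of either genotype, Herpud1 at 5 months is higher in KO-labelled libraries, and Atf3 and Trib3 at 2 months in WT spread from 2.346 to 17.96 CPM and from 5.713 to 13.47 CPM.

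The first comparison asked how these genes stood after 5 months of FFD against 2 months, in WT liver. ER chaperone transcripts were higher at 5 months, by 4.91-fold for Sdf2l1, 3.57-fold for Creld2 and 2.2-fold for Hspa5, whereas the mediators ATF4, XBP1 and CHOP differed by 1.41-fold or less at the mRNA level. Called higher were 7 of the 10, and 0 lower (edgeR quasi-likelihood test, Benjamini-Hochberg adjusted p under 0.05), beside 46.4% of all 14491 genes called in this comparison (23.8% of all genes higher). The groups did not overlap for 8 of the 10, all of them higher at 5 months, where 56.8% of all genes did not overlap and 28.7% were higher in this way. The median of the 10 log2 fold changes was 0.467, and that of all genes -0.0128.

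Hspa5 (chr2:34771970-34777547, mm10) encodes BiP, the main Hsp70 chaperone of the ER lumen and the repressor that holds the stress sensors inactive. It measured 485, 480.3 and 652.8 CPM in WT libraries at 2 months and 1320, 1129 and 1116 at 5 months. Every 5-month library was well above every 2-month library, and the log2 fold change was 1.14 (SE 0.13, edgeR adjusted p = 6.89e-05). Sdf2l1 (chr16:17130138-17132383) encodes an ER protein that works with DNAJB11 to keep BiP clients from aggregating. Its level went from 14.13, 6.845 and 10.55 CPM to 59.64, 45.92 and 49.11, a log2 difference of 2.30 (SE 0.254, edgeR adjusted p = 0.000605). Even the lowest 5-month library exceeded the highest 2-month library more than 3-fold. Creld2 (chr15:88819646-88826683), which encodes an ER-resident protein with disulfide isomerase activity, measured 10.26, 13.12 and 23.54 CPM at 2 months and 63.49, 53.15 and 51.35 at 5 months (log2 fold change 1.84, SE 0.317, edgeR adjusted p = 0.00645). The 3 genes kept their calls under each of 14 alternative analyses, with log2 fold changes of 1.06 to 1.295 for Hspa5, 2.01 to 2.57 for Sdf2l1 and 1.58 to 2.25 for Creld2.

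Dnajb9 (chr12:44205559-44210326) encodes ERdj4, a BiP co-chaperone that also represses IRE1. In WT it rose from 51.33, 54.45 and 70.61 CPM to 107.3, 85.08 and 81.15 (log2 fold change 0.63, SE 0.142, edgeR adjusted p = 0.00682). Herpud1 (chr8:94386438-94395377), an ER membrane protein that organizes the degradation complex around HRD1, measured 334.6, 260 and 398 CPM at 2 months and 526.8, 415.3 and 403.4 at 5 months. The groups did not overlap, yet its log2 difference of 0.44 (SE 0.161) did not pass the threshold (edgeR adjusted p = 0.0528), while DESeq2 called it (adjusted p = 0.0149).

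Among the transcription factors, Xbp1 (chr11:5520659-5525893) rose from 183.9, 155.6 and 165.8 CPM to 234.7, 204.6 and 213.6 in WT, a log2 difference of 0.37 (SE 0.0889, edgeR adjusted p = 0.00621). Gene counts do not separate spliced from unspliced Xbp1 mRNA. Atf4 (chr15:80255184-80257541) went from 67.48, 62.17 and 66.96 CPM to 85.58, 89.05 and 81.62 (log2 fold change 0.38, SE 0.0719, edgeR adjusted p = 0.00148), and its protein is set largely by translation, which RNA counts do not show. Ddit3 (chr10:127290774-127296288), which encodes the pro-apoptotic factor CHOP, measured 6.491, 8.183 and 9.638 CPM at 2 months and 9.713, 12.94 and 11.69 at 5 months. The highest 2-month and the lowest 5-month library lay next to each other, and the log2 difference of 0.50 (SE 0.17, edgeR adjusted p = 0.0334) lost its call without WT replicate 1 or 2 of 2 months (adjusted p = 0.0731 and 0.0697) and without WT replicate 2 or 3 of 5 months (0.131 and 0.0908). The annotated exons of Ddit3 share 68 of their 1713 bases with Mars on the opposite strand, and whether counting used strand is not given in the sources used here. Mars itself was not called in any comparison.

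Atf3 (chr1:191170296-191218039), a stress-induced repressor and immediate early gene, ran from 2.346 to 17.96 CPM at 2 months in WT, with 8.131 between them, and was 9.891, 11.07 and 12.47 at 5 months. The 2-month libraries lay on both sides of the 5-month ones, so no difference was detectable (log2 fold change 0.23, SE 0.71, edgeR adjusted p = 0.819). Trib3 (chr2:152337422-152344032), a pseudokinase induced by ATF4 and CHOP that restrains AKT signaling, measured 13.47, 5.713 and 5.834 CPM at 2 months and 10.25, 9.15 and 9.498 at 5 months. Its log2 fold change was 0.21 (SE 0.335, edgeR adjusted p = 0.642), and without WT replicate 1 of 2 months, the one high library, it was 0.74 (adjusted p = 0.00171).

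In KO-labelled liver the same comparison again gave higher chaperone transcripts at 5 months. Here edgeR called 5 of the 10 higher and 0 lower, beside 44.9% of 14478 genes called (22.7% of all genes higher). For 7 of the 10, all 5-month libraries were above all 2-month libraries, as they were for 28.2% of all genes, 55.6% separating in either direction. The 10 genes had a median of 0.522, with -0.0111 over all genes.

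Hspa5 measured 550.1, 703.1 and 672.2 CPM in KO-labelled libraries at 2 months and 1211, 1167 and 933.8 at 5 months. That is a 1.72-fold rise, with no overlap (log2 fold change 0.78, SE 0.123, edgeR adjusted p = 0.00134). Sdf2l1 rose 2.49-fold, from 14.13, 13.45 and 17.97 CPM to 36.52, 40.54 and 37.47 (log2 fold change 1.32, SE 0.108, edgeR adjusted p = 5.8e-06). The 3 libraries of each time lay close together, which gave this gene the smallest standard error relative to its change among the 10. Creld2 went from 15.37, 26.73 and 31.29 CPM to 61.19, 49.92 and 41.58 (log2 fold change 1.05, SE 0.309, edgeR adjusted p = 0.0475), a call that was lost without KO replicate 2 of 2 months (adjusted p = 0.109) and without KO replicate 1, 2 or 3 of 5 months (0.117, 0.112 and 0.0706).

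Trib3 was the gene with the second largest rise in KO-labelled liver, from 6.468, 5.243 and 3.535 CPM to 12.41, 10.1 and 12.24. All 5-month libraries were higher, and the 2.3-fold difference passed the test (log2 fold change 1.20, SE 0.2, edgeR adjusted p = 0.000778). Xbp1 was 165.4, 160.4 and 159.7 CPM at 2 months and 192.5, 190.4 and 177.5 at 5 months, a small rise (log2 fold change 0.20, SE 0.0564, edgeR adjusted p = 0.0121) that missed the threshold when libraries were scaled by their total alone (adjusted p = 0.0521). Dnajb9 (51.54, 72.04 and 80.86 CPM, then 114.3, 111.8 and 86.81) and Herpud1 (374.4, 508 and 637.4, then 722.9, 680.8 and 651.1) did not overlap between the times. Neither was called, with log2 fold changes of 0.61 (SE 0.199, edgeR adjusted p = 0.055) and 0.43 (SE 0.196, adjusted p = 0.132), although DESeq2 called both (adjusted p = 0.000258 and 0.00803). Ddit3 (log2 fold change 0.17, SE 0.15), Atf3 (0.27, SE 0.356) and Atf4 (0.01, SE 0.105) overlapped between the times, with 95% intervals of -0.12 to 0.467, -0.431 to 0.964 and -0.195 to 0.216.

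**Figure D2:**
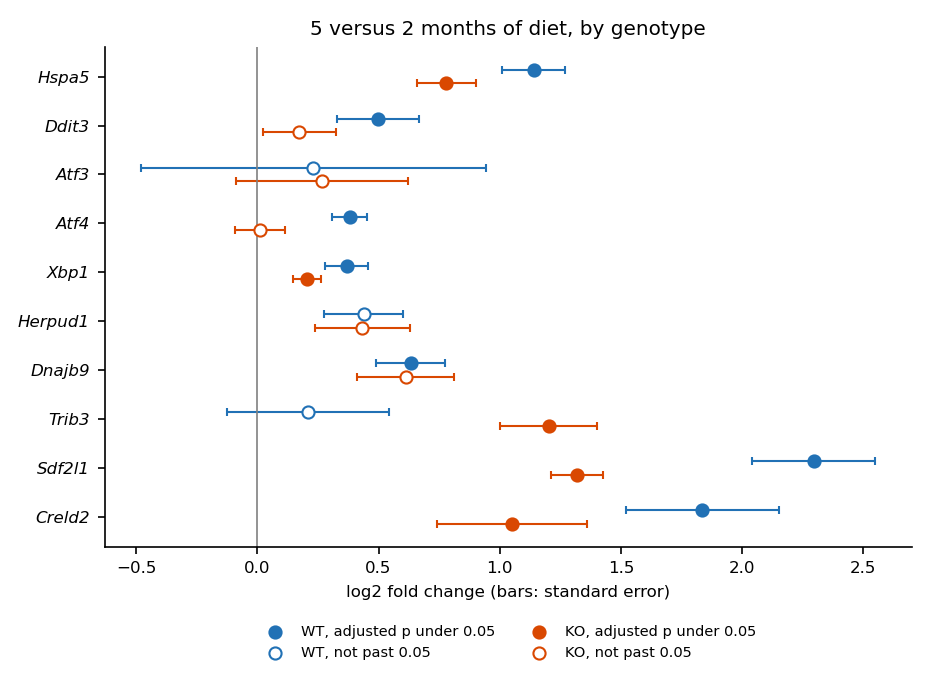
Log2 fold change of each gene between 5 and 2 months of FFD (horizontal axis, with its standard error as a bar), in WT (blue) and KO-labelled liver (orange); filled points have an edgeR adjusted p under 0.05. The values lie above 0, except that Atf4 in KO-labelled liver, at 0.01, turned negative when libraries were scaled by total alone or with the length offset, and Sdf2l1, Creld2 and Hspa5 lie furthest to the right in WT (2.30, 1.84 and 1.14).

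Gene length moved with time on the diet and has to be read beside these values. Across 14491 genes in WT, the log2 fold change between 5 and 2 months had a Spearman correlation of -0.361 with the gene length given in the tables, and across 14478 genes in KO-labelled libraries it was -0.32. These are correlations across genes of the same libraries, which are not independent replicates. Genes up to 2394 bases long had a median of 0.351 in WT, and those from 6391 bases upward one of -0.274. The 10 stress genes are 1108 (Sdf2l1) to 4229 bases (Hspa5) long. With the length trend of each library taken out as an offset in the edgeR fit, an analysis added after the data were seen, Hspa5 had log2 fold changes of 1.19 in WT and 0.82 in KO-labelled liver, Sdf2l1 2.01 and 1.11, and Trib3 in KO-labelled liver 1.08, all still called (adjusted p = 4.3e-05, 0.00094, 0.00138, 4.69e-05 and 0.0016, edgeR). Xbp1 in both genotypes and Dnajb9 and Creld2 in WT also kept their calls (adjusted p = 0.0394, 0.0321, 0.0204 and 0.0175). Those of Ddit3 (0.28, edgeR adjusted p = 0.188) and Atf4 (0.24, adjusted p = 0.051) in WT and of Creld2 in KO-labelled liver (0.87, adjusted p = 0.0811) were lost. With this offset, 5 of the 10 were called higher in WT, beside 22.2% of all genes, and 4 in KO-labelled liver, beside 23.3%.

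Other gene groups also moved with time, beside 46.4% of all genes called in WT and 44.9% in KO-labelled liver. Of 16 circadian clock genes, 12 were lower and 3 higher at 5 months in WT, and 11 lower and 3 higher in KO-labelled liver (edgeR). Their summed level was 1201 to 1309 CPM in WT and 1303 to 1324 in KO-labelled libraries at 2 months, and 563.9 to 576.4 and 718.5 to 777.9 at 5 months. Of 12 macrophage markers, 11 were higher at 5 months in WT, where the sum went from 504.8 to 655.6 CPM to 1462 to 1720, and 6 were higher and 2 lower in KO-labelled liver, where it went from 522.7 to 621.2 to 680.9 to 939.7. The share of these groups in the stress gene values was not tested. In the list of 12 plasma and B cell markers, whose cells hold much ER, Tnfrsf17 was at 0 in every library and Sdc1, which hepatocytes also express, made up most of the sum (219.5 to 271.6 CPM in WT at 2 months and 339.5 to 345.1 at 5 months). Only Sdc1 was called in WT over time, and the immunoglobulin J chain gene Jchain stood at 1.471 ± 1.1 CPM (SD, n = 3) at 2 months and 1.877 ± 0.57 at 5 months. Time on diet, day and hour of collection and preparation of the libraries cannot be told apart in this design.

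**Figure D3:**
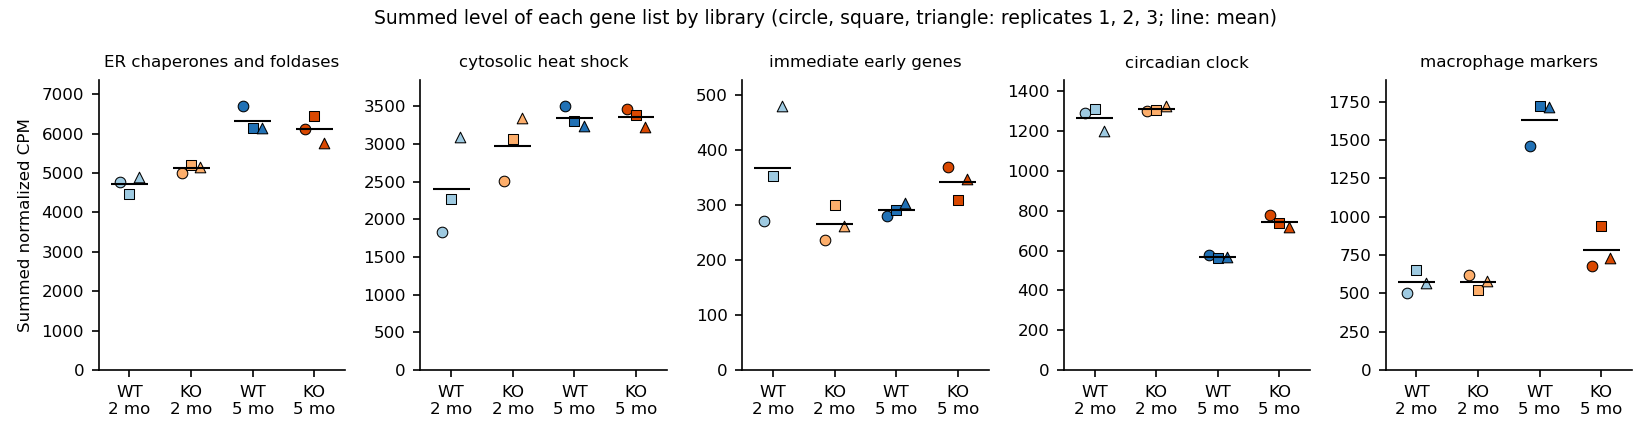
Summed normalized CPM (vertical axes, from 0) of 5 gene lists in each library; circles, squares and triangles are replicates 1, 2 and 3, and lines are group means. ER chaperones and macrophage markers are higher and clock genes lower at 5 months, and at 2 months the WT libraries spread from 1827 to 3097 CPM for heat shock genes and from 271.6 to 479.8 CPM for immediate early genes.

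The second question was whether the genotype label changed these genes at a given time. After 2 months of FFD no stress gene was called: 0 of the 10 passed edgeR's test, beside 3.56% of 14573 genes, and for 0 of 10 did the groups separate, against 24.1% of all genes. At an unadjusted p under 0.05, edgeR gave 2749 genes and, of the 10, Herpud1 alone, and DESeq2 called 947 genes and again Herpud1 alone. Of the log2 fold changes 7 were positive and 3 negative, with a median of 0.188 (-0.00483 over all genes).

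Herpud1 had the values given above, 260 to 398 CPM in WT and 374.4 to 637.4 in KO-labelled libraries, a log2 difference of 0.61 (SE 0.233) at which edgeR (adjusted p = 0.227) and DESeq2 (adjusted p = 0.013) differed. Creld2 had a log2 difference of 0.65 (SE 0.419, edgeR adjusted p = 0.492), and with the replicate number as a block it was 0.67 and called (adjusted p = 0.0176). The labels do not say that libraries of the same number are pairs. By number, the KO-labelled and WT libraries had 15.37 and 10.26 CPM, 26.73 and 13.12, and 31.29 and 23.54. Sdf2l1 had 0.54 (SE 0.249, edgeR adjusted p = 0.302), and 0.81 (adjusted p = 0.0379) without WT replicate 1. Hspa5 differed by 0.25 (SE 0.14, 95% interval -0.0241 to 0.525), Dnajb9 by 0.21 (SE 0.194), Atf4 by 0.16 (SE 0.102), Ddit3 by 0.10 (SE 0.185) and Xbp1 by -0.06 (SE 0.0779).

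Atf3 and Trib3 had the largest negative values at 2 months, and both rested on single WT libraries. Atf3 was 3.157, 8.663 and 4.688 CPM in KO-labelled libraries, within the WT range, and its log2 difference of -0.80 (SE 0.817) became 0.06 without WT replicate 3. That WT library, with 17.96 CPM of Atf3, also had the highest summed level of the 12 immediate early genes, 479.8 CPM against 237.1 to 369.7 in the other 11 libraries. WT replicate 1, with the lowest Atf3, had the lowest summed level of cytosolic heat shock genes, 1827 CPM against 2271 to 3501 elsewhere. The part of tissue handling in these values was not tested. Trib3 had a log2 difference of -0.72 (SE 0.398, edgeR adjusted p = 0.396), which was -0.19 without WT replicate 1.

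After 5 months of FFD, Herpud1 was higher in KO-labelled liver, whereas Atf3 and Sdf2l1 were lower. These 3 were the calls among the 10, 1 higher and 2 lower, beside 18.4% of 14138 genes called by edgeR, 8.9% higher and 9.51% lower. The groups separated for 5 of the 10, 1 higher and 4 lower, against 34.9% of all genes, 15.9% higher and 19% lower. The 10 genes had a median of -0.159, with -0.0058 over all genes.

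Herpud1 stood at 526.8, 415.3 and 403.4 CPM in WT and 722.9, 680.8 and 651.1 in KO-labelled libraries, a 1.54-fold difference (log2 fold change 0.62, SE 0.0957, edgeR adjusted p = 0.000688). Its size matched that at 2 months, and the difference between the times was -0.00 with a 95% interval of -0.558 to 0.55. Atf3 was 9.891, 11.07 and 12.47 CPM in WT and 5.284, 7.227 and 7.255 in KO-labelled libraries (log2 fold change -0.76, SE 0.153, edgeR adjusted p = 0.00404). Unlike at 2 months, the libraries of each group lay close together. Sdf2l1 was 59.64, 45.92 and 49.11 CPM in WT and 36.52, 40.54 and 37.47 in KO-labelled libraries (log2 fold change -0.42, SE 0.0915, edgeR adjusted p = 0.0064). All 3 kept their calls when any 1 library was left out. They lost them when the 12 libraries shared 1 estimate of spread (edgeR adjusted p = 0.0753 for Herpud1, 0.493 for Atf3 and 0.191 for Sdf2l1).

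Xbp1 and Atf4 were lower in every KO-labelled library at 5 months without a call. Xbp1 measured 204.6 to 234.7 CPM in WT and 177.5 to 192.5 in KO-labelled libraries (log2 fold change -0.21, SE 0.0686, edgeR adjusted p = 0.0509), and Atf4 81.62 to 89.05 and 69.78 to 80.82 (-0.20, SE 0.0714, adjusted p = 0.0779). Both were called when libraries were scaled by their total alone (adjusted p = 0.00549 and 0.0186), a scaling under which the median of all genes was -0.073 and 31.9% of the called genes were higher, against 48.3% with TMM. Adjusted p with the length offset was 0.224 and 0.323. BiP mRNA did not separate the genotypes at this time: Hspa5 differed by -0.10 on the log2 scale (SE 0.102, 95% interval -0.296 to 0.105), which lies within a 1.3-fold change in either direction. Creld2 differed by -0.12 (SE 0.14), Ddit3 by -0.21 (SE 0.134), Dnajb9 by 0.21 (SE 0.133) and Trib3 by 0.28 (SE 0.12, edgeR adjusted p = 0.137), with overlapping groups.

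**Figure D4:**
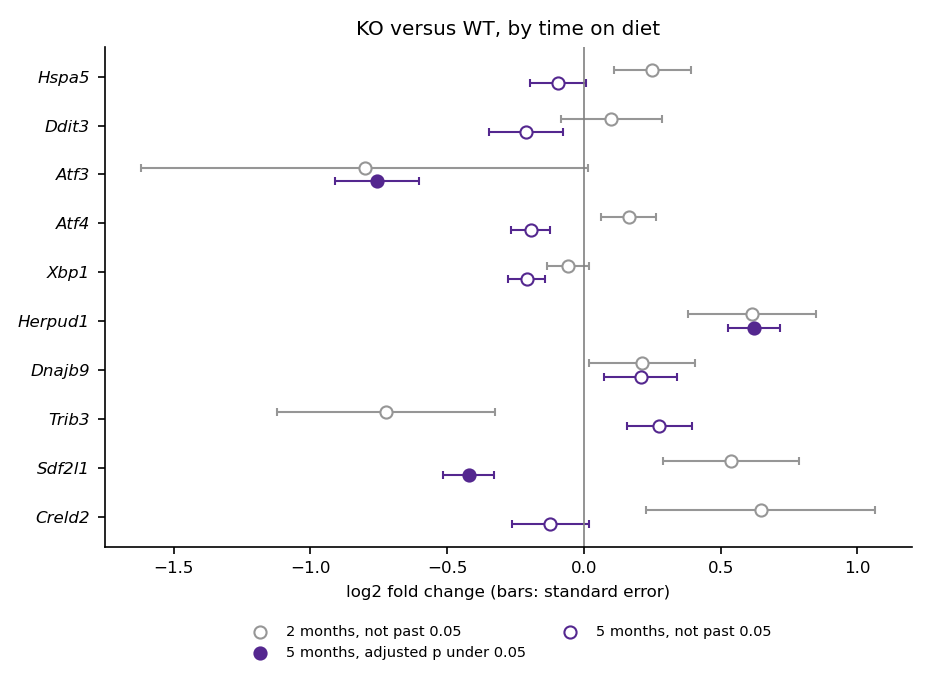
Log2 fold change of KO-labelled over WT liver (horizontal axis, with its standard error as a bar) for the 10 genes after 2 months (grey) and 5 months (purple) of FFD; filled points have an edgeR adjusted p under 0.05. Herpud1 lies at 0.61 and 0.62, Atf3 at -0.80 with a wide bar and -0.76 with a narrow one, and Sdf2l1 moves from 0.54 to -0.42.

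Macrophage markers and clock genes differed between the genotype labels at 5 months too. Of the 12 macrophage markers 10 were lower in KO-labelled liver, and of the 16 clock genes 8 were higher (edgeR). Of all genes 9.51% were lower and 8.9% higher. Both Atf3 and the macrophage sum were lower there, and the part of macrophages in the Atf3 value was not tested. Immediate early genes as a list were split at this time. Of 12, 3 were called higher, among them Dusp1 (0.87) and Zfp36 (0.53), and 2 lower, Ier3 (-1.31) and Klf6 (-0.51). Of the log2 fold changes 5 were positive and 7 negative. Their sum, which weighs abundant genes most, was 279.4 to 304.2 CPM in WT and 310.3 to 369.7 in KO-labelled libraries. The part of an immediate early response in the Atf3 value was not tested.

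Whether the genotype difference itself changed between 2 and 5 months was tested in the 12 libraries together. None of the 10 genes was called (0 of 10, beside 1.57% of 15127 genes, edgeR), and DESeq2 called Sdf2l1 among 565 genes. At an unadjusted p under 0.05, edgeR gave 2250 genes, among them Sdf2l1, Atf4 and Trib3. The KO-minus-WT log2 difference of Sdf2l1 was 0.98 lower at 5 than at 2 months (-0.98, SE 0.295, edgeR adjusted p = 0.146, DESeq2 adjusted p = 0.0205). Without WT replicate 1 of 2 months it was -1.24 and called (edgeR adjusted p = 0.017). That of Creld2 changed by -0.78 (SE 0.476, edgeR adjusted p = 0.498), and was called with the replicate block (-0.81, adjusted p = 0.0178). Atf4 changed by -0.37 (SE 0.129, edgeR adjusted p = 0.171) and was called without KO replicate 3 of 2 months (-0.48, adjusted p = 0.0387). Trib3 changed by 0.99 (SE 0.439, edgeR adjusted p = 0.321), and Hspa5 by -0.36 (SE 0.193, adjusted p = 0.419).

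The wider pathway was read from 8 lists with 118 further genes. Over time in WT, 60 of 116 tested were called higher and 8 lower, and in KO-labelled liver 55 and 9 (edgeR), where 23.8% and 22.7% of all genes were higher. With the length offset the counts were 58 and 3, and 61 and 6. Between the genotypes 4 of 115 were higher and 1 lower at 2 months, where 3.56% of all genes were called, and 13 of 117 higher and 5 lower at 5 months, where 8.9% of all genes were higher and 9.51% lower. With libraries scaled to their totals and no TMM, the split at 5 months turned to 9 higher and 13 lower.

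Among ER chaperones and foldases in WT, 16 of 21 rose and 0 fell over time (median 0.515 on the log2 scale), and in KO-labelled liver 12 rose and 0 fell (median 0.318). Manf, which encodes a secreted ER stress protein, rose from 45 to 144.1 CPM in WT (log2 fold change 1.68, edgeR adjusted p = 1.16e-05) and from 52.2 to 124.2 in KO-labelled liver (1.25, adjusted p = 0.00135). Fkbp2 (1.02 and 0.97), a prolyl isomerase, and Pdia6 (1.00 and 0.77), a disulfide isomerase, also rose in both. With the length offset 16 and 13 of the 21 were higher, beside 22.2% and 23.3% of all genes. Without it 23.8% and 22.7% of all genes were higher. Of all genes edgeR called 3.56% between the genotypes at 2 months and 18.4% at 5 months. Between the genotypes, Ppib (cyclophilin B) was the only call of the list at 2 months, at 51.31 ± 3.24 CPM in WT and 68.03 ± 3.82 in KO-labelled liver (SD, n = 3; log2 fold change 0.41, edgeR adjusted p = 0.0215), and at 5 months there was 0 of 21.

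Genes of translocation into and export from the ER followed the chaperones. Over time edgeR called 23.8% of all genes higher in WT and 22.7% in KO-labelled liver. Between the genotypes it called 3.56% at 2 months and 18.4% at 5 months. In WT 11 of 16 rose, led by Srp54a (1.49), Spcs2 (1.24), Sec61g (1.18) and Sec61b (1.03), which code for parts of the signal recognition particle, the signal peptidase and the Sec61 channel, and in KO-labelled liver 12 of 16 rose. Sec63 was the 1 call between the genotypes, at 5 months (0.19, edgeR adjusted p = 0.0387), and it was called in 4 of 14 alternatives (adjusted p up to 0.168). ER-associated degradation was mixed. In WT 8 of 16 rose, among them Derl3 (1.78, at 1.093 and 3.798 CPM), Ube2g2 (1.23), Selenos (0.94) and Hspa13 (0.68), while Sel1l and Herpud2 fell by 0.26 and 0.32 on the log2 scale. In KO-labelled liver 6 rose and 1 fell. Derl2, a channel component, was the 1 call between the genotypes at 2 months (0.44, edgeR adjusted p = 0.0202). At 5 months 2 of the 16 were higher in KO-labelled liver and 1 lower, near the shares of all genes (8.9% and 9.51%). The higher ones were Sel1l (0.31, edgeR adjusted p = 0.0245) and Edem1 (0.24, adjusted p = 0.0258), which feeds glycoproteins to the degradation complex. Selenos was the lower one (-0.23, edgeR adjusted p = 0.0438). Sel1l was called in 9, Edem1 in 7 and Selenos in 6 of 14 alternatives, and with the length offset none of the list was called there.

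The stress sensors themselves moved less and not together. Their genes are longer, with a median of 6654.5 bases against 3745 for ER chaperones and foldases. Genes from 6391 bases upward had a median log2 fold change of -0.274 over time in WT. In WT over time Ern1 was -0.22 and Atf6 -0.09, and with the length offset 0.03 and 0.18, none of them called. The part of gene length in the sensor values was not tested. Of 12 sensors and eIF2alpha kinases, 3 rose and 2 fell over time in each genotype, beside 23.8% of all genes higher in WT and 22.7% in KO-labelled liver, a split that turned to 0 and 6 in WT and 2 and 3 in KO-labelled liver when libraries were scaled by total alone, and to 5 and 1 in KO-labelled liver with the length offset. Eif2ak3, which encodes PERK, rose in both (0.29 in WT, edgeR adjusted p = 0.0231, and 0.55 in KO-labelled liver, adjusted p = 0.0015) and was higher in KO-labelled liver at 5 months, at 36.26 ± 3.66 against 26.77 ± 2.15 CPM (SD, n = 3; 0.45, edgeR adjusted p = 0.00316). Ern1, which encodes IRE1alpha, was 79.53 ± 17 CPM in WT and 123.2 ± 9.95 in KO-labelled liver at 2 months (SD, n = 3; 0.63, edgeR adjusted p = 0.0592). The groups did not overlap, as for 24.1% of all genes. DESeq2 called Ern1 there (adjusted p = 0.000596), as did edgeR with the length offset (adjusted p = 0.035). In KO-labelled liver Ern1 fell to 71.67 CPM at 5 months (-0.78, edgeR adjusted p = 1.7e-05). Eif2ak4, the amino acid sensor GCN2, fell in WT (-0.38, edgeR adjusted p = 0.0205), a call lost with the length offset (adjusted p = 0.293) and with 4 libraries left out in turn. In WT over time Eif2ak3 was called in 10 of 14 alternatives. Creb3l2 (0.56, edgeR adjusted p = 0.000125) and the ATF6-cleaving protease gene Mbtps2 (0.39, adjusted p = 0.0347) were the other sensor-list genes higher in KO-labelled liver at 5 months, Mbtps2 in 6 of 14 alternatives and Creb3l2 in all of them. In that comparison edgeR called 8.9% of all genes higher. Atf6 and the liver-enriched Creb3l3 were not called in any comparison, at 101.5 to 118.3 and 269 to 318.6 CPM in the 4 group means.

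Targets of ATF4 and CHOP in amino acid supply were split. Of 24 tested in WT over time 10 rose and 3 fell, and of 24 in KO-labelled liver 9 rose and 5 fell. Of all genes 23.8% and 22.7% rose. Nupr1, a stress-induced chromatin protein, rose in WT from 1.299 to 5.431 CPM (2.06, edgeR adjusted p = 0.000835), Asns, asparagine synthetase, from 0.513 to 2.037 (2.00, adjusted p = 0.0252) and Chac1, a glutathione-degrading enzyme, from 2.027 to 6.646 (1.71, adjusted p = 0.0162), all at low levels. Asns over time was called in 8 of 13 alternatives, Chac1 in 12 of 14. Vegfa fell in WT from 179.1 to 65.26 CPM (-1.46, edgeR adjusted p = 2.56e-06) and in KO-labelled liver from 167.8 to 83.82 (-1.004, adjusted p = 5.67e-06). At 5 months 5 of 25 were higher in KO-labelled liver (8.9% of all genes), led by Ddit4, an mTORC1 inhibitor also induced by glucocorticoids, at 60.91 against 19.58 CPM (1.65, edgeR adjusted p = 6.6e-06), and 2 were lower (9.51% of all genes), Asns (-1.56, adjusted p = 0.0384) and Nupr1 (-1.08, adjusted p = 0.0289). Both of these overlapped between the groups and lost their calls with a library left out (adjusted p up to 0.147 for Asns, in 5 of 6 cases, and up to 0.113 for Nupr1, in 4 of 6), whereas Ddit4 was called in all 14 alternatives. At 2 months, where 3.56% of all genes were called, the 1 call was Atf5, an ATF4-related factor (0.37, edgeR adjusted p = 0.029). It lost that call without WT replicate 2 or 3 or any KO replicate (adjusted p = 0.053 to 0.139), as did Ppib (0.0525 to 0.0944), Derl2 (0.0521 to 0.082) and Tars (0.0646 to 0.116).

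The remaining lists were smaller, and stand beside 23.8% of all genes called higher over time in WT and 22.7% in KO-labelled liver. Between the genotypes edgeR called 3.56% of all genes at 2 months and 18.4% at 5 months (8.9% higher and 9.51% lower). Of 9 genes of eIF2alpha dephosphorylation and translational feedback, 5 rose and 1 fell over time in each genotype, led by Eif4ebp1, a brake on cap-dependent translation and an ATF4 target (1.23 in WT and 0.98 in KO-labelled liver), while the phosphatase subunit gene Ppp1r15b fell (-0.35 and -0.45), and 0 were called between the genotypes at either time. Of 12 cytosolic aminoacyl-tRNA synthetases 6 rose in each genotype. Tars was higher in KO-labelled liver at 2 months (0.56, edgeR adjusted p = 0.0298) and 5 months (0.30, adjusted p = 0.00491). Sars was lower there at 5 months (-0.26, edgeR adjusted p = 0.0102), a call lost without WT replicate 2 (adjusted p = 0.0702). Of 8 death genes linked to CHOP, Bcl2l11 was lower in KO-labelled liver at 2 months (-0.71, edgeR adjusted p = 0.0302), a call lost in 4 of 6 cases with a library left out (adjusted p up to 0.124). Over time Bok (1.24) and Bax (0.67) rose in WT. In KO-labelled liver Bok (1.46), Bbc3 (1.39) and Bax (0.67) rose, and at 5 months Bbc3, which encodes the BH3-only protein PUMA, was higher in KO-labelled liver (0.94, edgeR adjusted p = 0.000382) and Pmaip1, which encodes NOXA, lower (-1.05, adjusted p = 0.00425).

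**Figure D5:**
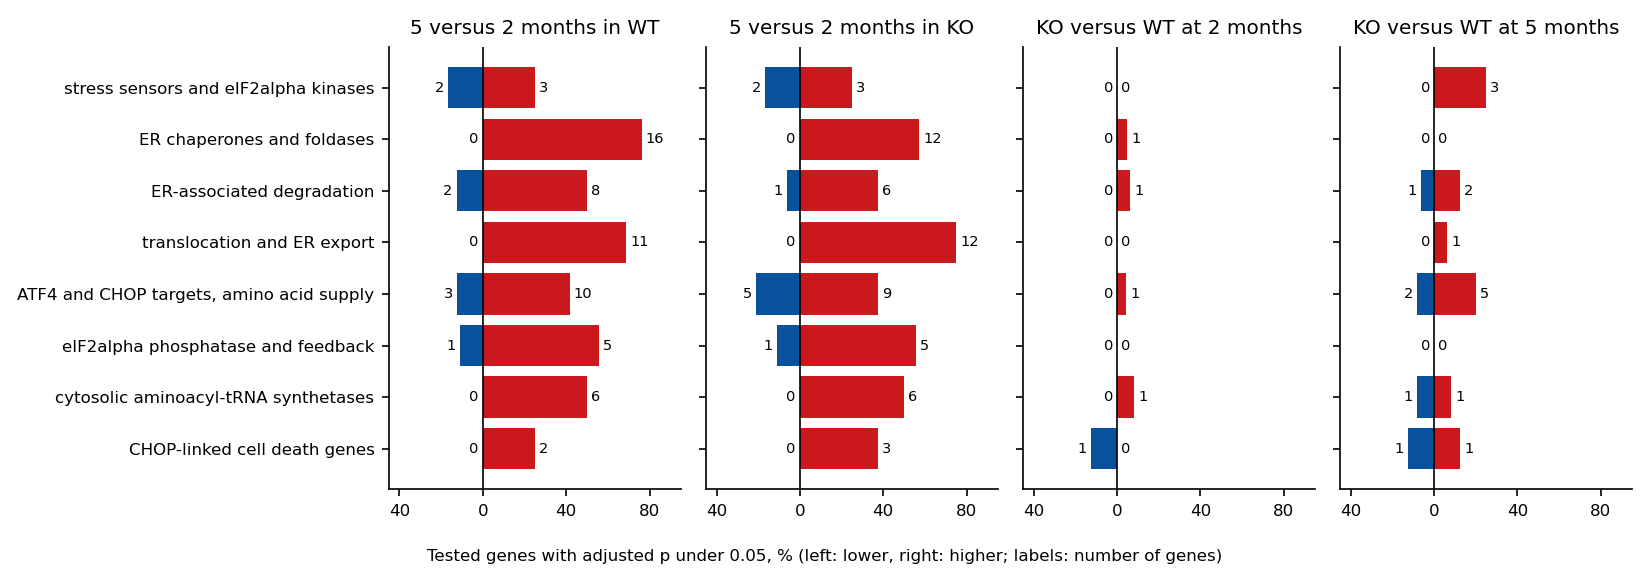
Share of the tested genes of 8 pathway lists (vertical axis) called higher (red, to the right) or lower (blue, to the left) by edgeR in 4 comparisons, in percent; numbers beside the bars count genes. ER chaperones rise without falls over time (16 and 12 genes), and each list has at most 1 call between the genotypes at 2 months. Of all genes, 23.8% in WT and 22.7% in KO-labelled liver were higher over time, and 3.56% were called between the genotypes at 2 months.

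Replicates varied together for part of the 10 genes. After group means were taken out, Hspa5 correlated over the 12 libraries with Dnajb9 (Pearson r = 0.931), Creld2 (0.901) and Herpud1 (0.768), and Dnajb9 with Creld2 (0.925), whereas Hspa5 and Atf4 had an r of 0.0185. These values are descriptive, since libraries share depth, RNA quality and 4 group means. Of 10027 other genes with a mean of at least 5 CPM, Hyou1 (0.977), Manf (0.974), Armc6 (0.964), Sec23b (0.951) and Gnai1 (0.95) varied most like Hspa5, and Plek (0.947), Stab2 (0.935), Krt18 (0.91), Rnf20 (0.908) and Alkbh6 (0.907) most like Ddit3. Hyou1 and Manf are chaperone-list genes, and Sec23b codes for a coat protein of ER export vesicles.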

How the data were processed

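For each of the 12 liver libraries the authors deposited a table of read counts per gene with the gene's name, coordinates and length on mm10. The counts were whole numbers that had not been normalized. The paper names STAR as aligner and the submitters' processing notes name HISAT2. The counting program, the annotation version and the use of strand are not given in the sources used here. A spreadsheet had turned 27 gene names into serial numbers, and these were restored from the identifier.

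Counts of all genes were filtered with filterByExpr, scaled by TMM (factors 0.9495 to 1.087) and tested with the two-sided quasi-likelihood test of edgeR 4.0.16 (R 4.3.3), with Benjamini-Hochberg adjustment across the whole table and a threshold of 0.05. Each pairwise comparison was fitted on its own 6 libraries, the change of the genotype difference on all 12. CPM are relative to the TMM-scaled library total. A 95% interval is the log2 value plus or minus 1.96 SE. It is approximate, and with so few libraries narrower than the edgeR test implies. For Sdf2l1 between the genotypes at 2 months it was 0.0492 to 1.03, although the unadjusted p was 0.0652 (edgeR). DESeq2 1.42.0 was an alternative. The code was tested on simulated data.

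The 10 genes, the lists and the tests were chosen with earlier results of these data known. Named were the 10 genes, 5 sensors, Pparg, from each pathway or neighbouring list up to 4 called genes with the largest change and a mean of at least 1 CPM, marker genes where a count is printed, and the 5 genes that varied most like Hspa5 and like Ddit3. The 7 PPARγ targets, Alb, Mars, Jchain, Sdc1, Tnfrsf17, Sel1l and Herpud2 are also named, where the text singles them out or a count of 5 or fewer holds them, and were chosen after their values were seen. The lists were 8 for the pathway, 5 for neighbouring responses (cytosolic heat shock, mitochondrial chaperones and proteases, immediate early genes, circadian clock and fasting and glucocorticoid response) and 8 for cell types (hepatocytes, plasma and B cells, macrophages, neutrophils, T and NK cells, stellate cells, endothelial cells, cholangiocytes). A further list is not reported here.

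Alternatives were DESeq2, edgeR with DESeq2 size factors or with library totals alone as scaling, a minimum of 10 counts per library as the filter or none at all, a block for the replicate number, a fit of the 12 libraries together, an adjusted p under 0.1, an unadjusted p under 0.05 with a 1.3-fold change, leaving out each library and, added after seeing the data, a gene length offset (a spline on log length with 5 degrees of freedom). The replicate numbers in the labels were checked for pairing over the 5000 most abundant genes with group means taken out. Same-numbered libraries correlated at 0.22, 0.321 and 0.142 between the genotypes at 2 months, and libraries of unlike number at -0.271 to 0.111. The labels name no pairs, so the blocked value is given there only as an alternative, where it changes a call. At 5 months the same-numbered values were -0.071, -0.0603 and -0.179. Over time they were 0.235, 0.185 and 0.0162 in WT and -0.0436, 0.217 and -0.018 in KO. In none of these comparisons are the numbers taken as pairs.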

Additional observations from a re-analysis of the deposited data

Results flagged for a closer look

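The genotype difference changed between 2 and 5 months for 8 genes of the pathway and neighbouring lists described here, by the test of that change in 12 libraries (edgeR, Benjamini-Hochberg adjusted p under 0.05). None of the 10 stress genes was among them. Values are the KO-minus-WT log2 difference at 5 months minus that at 2 months, and each is given with no explanation. Under 19 alternatives Fkbp5 was called in all, Atf5 in 15, Dusp1, Junb and Hlf in 13, Ciart in 12 and Ppib and Cry2 in 10, with the highest adjusted p (edgeR) between 0.024 (Fkbp5) and 0.119 (Ciart).

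Among pathway genes, Atf5 changed by -0.61 (SE 0.123, edgeR adjusted p = 0.0193), from 0.37 at 2 months to -0.23 at 5 months, and Ppib by -0.47 (SE 0.102, adjusted p = 0.0291), from 0.41 to -0.06. Both rose over time in WT, Atf5 from 239.3 to 475.3 CPM and Ppib from 51.31 to 66.04. In KO-labelled liver Atf5 started at 309.4 CPM and Ppib at 68.03.

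Of the immediate early genes, Dusp1 changed by 1.28 (SE 0.233, edgeR adjusted p = 0.0256) and Junb by 0.82 (SE 0.167, adjusted p = 0.0221). Junb was lower in KO-labelled liver at 2 months (-0.64) and Dusp1 higher at 5 months (0.87). Of the clock genes, Ciart changed by 2.79 (SE 0.544, edgeR adjusted p = 0.0338), Cry2 by 0.63 (SE 0.14, adjusted p = 0.0357) and Hlf by 0.52 (SE 0.106, adjusted p = 0.0212). Fkbp5, a glucocorticoid-induced co-chaperone, changed by 2.00 (SE 0.257, edgeR adjusted p = 0.00643), at 22.51 and 32.42 CPM in WT and KO-labelled liver at 2 months and 16.59 and 96.07 at 5 months.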

How the results depend on the processing

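Over time, the counts of called stress genes (7 in WT and 5 in KO-labelled liver) and of all called genes stayed within 1.5 times under every alternative run. Of the 10 genes at 2 months between the genotypes, 0 were called, and 1 with an unadjusted p under 0.05 and 1.3-fold, 3 with no filter, 1 with the replicate block, 1 with DESeq2 and 0 to 1 with a library left out. Over all genes the count at 2 months was 519, and 1608, 1562, 817 and 947 under the same settings, 1063 at an adjusted p under 0.1, 1153 with 12 libraries in one fit and 117 to 1577 with a library left out (most without WT replicate 1, fewest without WT replicate 2). At 5 months 3 of the 10 were called, 5 at an adjusted p under 0.1, 5 with library size alone and 0 in the fit of 12 libraries, and over all genes leaving out a library gave 1593 to 3078 beside 2602 (fewest without WT replicate 3 or 2, most without WT replicate 1). For the change of the genotype difference 0 of the 10 were called, and 2 with an unadjusted p and 1.3-fold, 1 with no filter, 1 with the replicate block, 1 with DESeq2 and 0 to 1 with a library left out, beside 238 genes in all and 1563, 793, 260 and 565 under those settings, 519 at an adjusted p under 0.1 and 83 to 567 with a library left out (fewest without WT replicate 3 of 5 months, most without WT replicate 1 of 2 months). Library size alone lowered the share of higher calls at 2 months (49.9% against 32.9%) and at 5 months (48.3% against 31.9%). The cause of these shifts was not tested.

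Values near 0 changed sign. Atf4 over time in KO-labelled liver was -0.050 with library size alone, -0.085 with the length offset and -0.10 to 0.077 with a library left out. For the change of the genotype difference, Atf3 was -0.16 with the replicate block and -0.81 to 0.50 with a library left out, Herpud1 0.020 with library size alone, 0.017 with the block, 0.014 with the length offset and -0.18 to 0.20 with a library left out, Dnajb9 0.0086 with library size alone and -0.18 to 0.12 with a library left out, Creb3l3 0.0027 and -0.081 to 0.029, and Atf6 -0.073 to 0.0080. With the length offset over time, Ern1 in WT was 0.027, Atf6 0.18 in WT and 0.10 in KO-labelled liver and Eif2ak4 in KO-labelled liver 0.10. Leaving out a library gave, at 2 months, Ddit3 -0.043 to 0.25, Atf3 -1.26 to 0.056 and Xbp1 -0.11 to 0.012, at 5 months Hspa5 -0.16 to 0.013 and Creld2 -0.27 to 0.0025, and over time Atf3 -0.22 to 1.08 in WT and -0.0035 to 0.72 in KO-labelled liver and Trib3 in WT -0.0031 to 0.74.

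With the replicate block at 2 months, Creld2 was the 1 gene of the 10 whose call changed (0.67). Elsewhere the block added Herpud1 in WT over time (0.45), Creld2 for the change of the genotype difference (-0.81) and removed Creld2 in KO-labelled liver over time (1.08). With 3 libraries a group and low counts, differences in Atf3, Trib3 and Ddit3 smaller than their intervals could not be seen.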

Other observations

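Stress responses of other compartments gave values beside those of the ER. Over time edgeR called 46.4% of all genes in WT (23.8% higher) and 44.9% in KO-labelled liver (22.7% higher). Between the genotypes it called 3.56% at 2 months and 18.4% at 5 months (8.9% higher and 9.51% lower). Of 12 cytosolic heat shock genes, 4 were higher and 0 lower over time in WT, among them Hspb1 (from 33.64 to 88.86 CPM, log2 fold change 1.40, edgeR adjusted p = 0.00679) and Hsp90aa1 (0.90, adjusted p = 0.0154), and in KO-labelled liver 2 were higher and 2 lower, with Hspa1a at -2.12 (adjusted p = 0.000825). At 5 months Hspb1 was lower in KO-labelled liver (-0.93, edgeR adjusted p = 1.91e-06) and Hspa1a as well (-1.39, adjusted p = 0.00491), while Hspa4l was higher. Of 10 mitochondrial chaperones and proteases, 5 rose and 1 fell in WT and 7 rose in KO-labelled liver, led by Clpx (1.27 and 1.32) and Hspe1 (1.19 and 0.96), and 0 were called between the genotypes at either time.

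Of 16 fasting and glucocorticoid genes, 6 were higher and 2 lower in KO-labelled liver at 5 months, led by Zbtb16 (3.45, edgeR adjusted p = 6.78e-08) and Fkbp5 (2.54, adjusted p = 9.26e-08). The shares of all genes there were 8.9% and 9.51%. No immediate early gene was higher over time in WT and 1 was lower (Zfp36, -0.49), and 4 were higher and 1 lower in KO-labelled liver. The shares of all genes called over time were 46.4% in WT and 44.9% in KO-labelled liver.

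Between the genotypes at 5 months, 4 of 10 stellate cell, 5 of 9 endothelial and 2 of 3 tested neutrophil markers were lower, 0 of 8 tested T and NK cell markers were called, and 1 of 9 hepatocyte and 1 of 6 tested cholangiocyte markers were higher. Of the plasma and B cell markers 1 was higher and 2 lower. In this comparison 8.9% of all genes were higher and 9.51% lower.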
